A study of Homo sapiens with 39 samples.

Results

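The spliceosome genes described here encode the protein parts of the small nuclear ribonucleoproteins (snRNPs) and the SF3 factors of human cells. Members were chosen by name: the SF3A and SF3B subunits, every gene starting with SNRP or PRPF, U2AF1 and U2AF2, LSM2 to LSM8, EFTUD2 and PHF5A. This gave 45 of the 19136 genes targeted in the study. All 45 (180 guides) were in a whole-genome CRISPR library with 4 guides per gene, and 15 of them (150 guides) were also in an epigenetic library with 10 guides per gene. Relatives with other names, such as SNRNP70, SNRNP200 and SNRNP40, fall outside the pattern and are given only as a neighbouring list.

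The screens were pooled knockouts in A375, a human melanoma line driven by mutant BRAF. All cells already lacked 1 subunit of Mediator, the complex that bridges transcription factors and RNA polymerase II. MED12 knockout cells (MED12KO) carried the epigenetic or the whole-genome library and were collected at day 0 and at days 8 and 14 of DMSO or 2 µM of the BRAF inhibitor vemurafenib. MED23 knockout cells (MED23KO) carried the epigenetic library and were collected at day 0 and at day 14 of DMSO or 1 µM vemurafenib. Each of the 13 groups had 3 libraries of guide counts, with 47766947 to 87591804 reads per library in the whole-genome screen, 16385695 to 20814734 in the epigenetic MED12KO screen and 22846325 to 28994690 in the MED23KO screen. No group had intact Mediator, so nothing below compares a knockout with its parental line. The labels do not state whether a knockout line was 1 clone, nor whether the libraries of a group came from separate cultures. The spread between libraries may thus understate that between independent experiments.

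The spliceosome removes introns from pre-mRNA. The U1 snRNP marks the 5′ splice site, U2AF and the U2 snRNP with its SF3a and SF3b parts mark the 3′ end and the branch point, and the U4/U6.U5 tri-snRNP then joins and is rearranged into the catalytic machine. Sm proteins form the ring around most of these RNAs, and the LSM2 to LSM8 proteins form the ring around U6. Most dividing cells need this machinery, so cells whose guide destroys an essential part are lost from a pool and the guide becomes rarer over time.

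Guide abundance is given as CPM, the read count of a guide scaled to the TMM-adjusted size of its library, summed over the guides of a gene. The gene score is the mean over those guides of log2(CPM + 0.5), and its change between 2 groups is on that log2 scale with the standard error from 3 libraries per group. Because of the added 0.5, the change of a rare guide is understated. Fell and rose are used for genes with an edgeR/RRA adjusted p below 0.05 over all genes of the library, where RRA combines the ranks of a gene's guides. These ranks are taken among the guides of all genes. The gene p is thus relative to other guides and does not itself measure the spread between libraries. A gene can have fully separate groups of libraries and still not pass.

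Guides against the spliceosome were lost most clearly from MED23KO cells. From day 0 to day 14 in DMSO, 10 of 15 members fell and 0 rose, while 12.6% of the 1115 genes in the library fell and 5.56% rose. In all 15 members the 3 day 14 libraries scored below the 3 day 0 libraries, which was so for 48.7% of all genes. The median change in gene score was -2.45 over the members and -0.18 over all genes. The member with the smallest change, SF3B4, changed by -1.51 ± 0.07.

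The SF3b complex, which holds the branch point, had the members with the firmest calls. SF3B3, its scaffold, had 614, 599 and 628 CPM at day 0 and 52.1, 82.4 and 80.8 CPM at day 14. The groups are far apart, and all 10 guides had negative fold changes. The score of SF3B3 changed by -3.93 ± 0.13 (edgeR/RRA adjusted p = 0.000704). PHF5A, a small subunit that lines the branch point pocket with SF3B1, went from 818, 774 and 793 CPM to 199, 247 and 225 CPM. All 3 late libraries were again below every early one, by -3.15 ± 0.05 in score (edgeR/RRA adjusted p = 0.000696). For PHF5A 9 of 10 guides were lower and 1 guide, with a log2 fold change of 0.78, was not. SF3B1, the largest subunit and the one mutated in several blood cancers, went from 430, 447 and 469 CPM to 57.4, 54.6 and 67.7 CPM. Its score changed by -3.63 ± 0.11 (edgeR/RRA adjusted p = 0.00519), with all 10 guides lower. SF3B5 fell by 2.45 ± 0.08 and the SF3a subunit SF3A2 fell by 2.51 ± 0.18 on the log2 scale (edgeR/RRA adjusted p = 0.0399 and 0.00434). SF3B2 (-1.73 ± 0.12) and SF3B4 did not pass (edgeR/RRA adjusted p = 0.0767 and 0.298).

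U2AF1 reads the AG at the 3′ splice site and U2AF2 binds the pyrimidine tract before it. U2AF1 had 596, 593 and 576 CPM at day 0 and 78.7, 101 and 111 CPM at day 14. Its score changed by -3.65 ± 0.13 (edgeR/RRA adjusted p = 0.0034). U2AF2 had 540, 509 and 516 CPM and then 193, 164 and 158 CPM. The groups of U2AF2 do not overlap and all 10 of its guides were lower, but the gene did not pass (-1.99 ± 0.06, edgeR/RRA adjusted p = 0.151).

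Among members listed with U5 and the tri-snRNP, EFTUD2, the GTPase of U5, showed the largest change in score. It had 510, 496 and 469 CPM at day 0 and 33.2, 65.9 and 31.5 CPM at day 14. All 10 guides were lower and the score changed by -3.97 ± 0.20 (edgeR/RRA adjusted p = 0.0168). PRPF31, which joins U4/U6 to U5, fell by 1.54 ± 0.12 (edgeR/RRA adjusted p = 0.0245). PRPF18, a factor of the second catalytic step, had 541, 551 and 555 CPM and then 237, 290 and 267 CPM. Its libraries are separate, yet PRPF18 did not pass (-1.52 ± 0.06, edgeR/RRA adjusted p = 0.76).

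PRPF19, a ubiquitin ligase of the activated spliceosome, had 475, 506 and 466 CPM at day 0 and 74.9, 83.7 and 68.1 CPM at day 14. PRPF19 fell by 3.31 ± 0.20 (edgeR/RRA adjusted p = 0.0268). LSM4 of the U6 ring had 750, 731 and 742 CPM and then 487, 528 and 597 CPM. The score of LSM4 fell by 1.57 ± 0.06 (edgeR/RRA adjusted p = 0.0377), with 7 of 10 guides lower. SNRPD2, the only Sm protein in this library, had 834, 825 and 816 CPM and then 507, 519 and 416 CPM, and it did not pass (-2.33 ± 0.27, edgeR/RRA adjusted p = 0.0694). Summed CPM of SNRPD2 and LSM4 moved less than their scores, since summed CPM weighs abundant guides more.

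**Figure D1:**
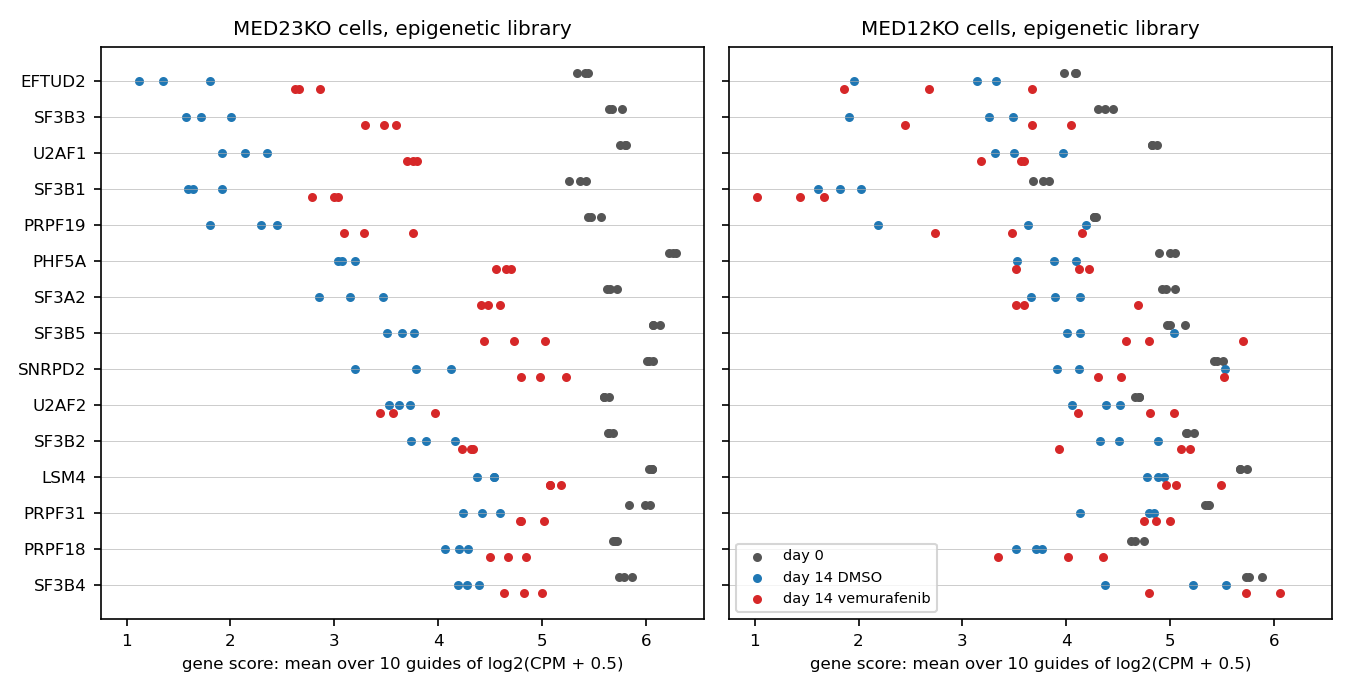
Gene score of the 15 spliceosome members in each of 3 libraries at day 0 (grey), day 14 in DMSO (blue) and day 14 in vemurafenib (red), with MED23KO cells on the left and MED12KO cells on the right. Each point is 1 library and genes are ordered by their change in MED23KO cells; there, grey and blue points are separate for all 15 genes, and with this TMM scaling red points lie above blue ones for 14 (on library totals 7 of 15 members had a median guide fold change below 0), while in MED12KO cells the day 14 points of several genes spread over more than 1 log2 unit.

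Other essential machines changed in the same libraries. Of 37 cytosolic ribosomal proteins 29 fell, with a median score change of -3.04, and of 10 proteasome subunits 5 fell, with a median of -2.73. Of the spliceosome genes outside the name pattern, 2 of 3 snRNP proteins fell, SNRNP200 (-3.01 ± 0.48) and USP39 (-1.51 ± 0.11), with edgeR/RRA adjusted p = 0.00355 and 0.0354. The snRNP assembly factors PRMT5 (-2.51 ± 0.26) and WDR77 (-2.39 ± 0.08), which methylate Sm proteins, were the 2 of 4 in their list that fell (edgeR/RRA adjusted p = 0.00364 and 0.0445). CDC5L, the partner of PRPF19 and the only gene of its list measured, fell (-2.67 ± 0.11, edgeR/RRA adjusted p = 0.00159). Of 4 SR and SR-like proteins SRSF2 fell (-2.95 ± 0.16, edgeR/RRA adjusted p = 0.0299). The 1 gene each of the branch site helpers and of the minor spliceosome did not pass.

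The scale of these losses depends on what is held constant. With TMM scaling the median guide fold change of all genes was 0.06 on the log2 scale. Scaling on the 83 untargeted CTRL guides moved that median to -1.13 and the members' median of fold changes from -2.32 to -3.50. The distance of the members from all genes was -2.38 with TMM, -2.37 with control guides and -2.38 with library totals. The number of members called was 10, 3 and 10, where 12.6%, 4.84% and 12% of all genes fell.

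In MED23KO cells the difference between vemurafenib and DMSO depended on the scaling of the libraries. With TMM scaling at day 14, 3 of 15 members rose against DMSO (7.8% of all genes rose) and 0 fell (2.96% of all genes). Scores were above DMSO without overlap in 14 members, and in 35.8% of all genes. The median difference in score was 1.19 over the members and 0.16 over all genes.

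With TMM scaling the 3 members that rose are all SF3b subunits. SF3B3 had 137, 147 and 167 CPM under the drug against 52.1, 82.4 and 80.8 CPM in DMSO. The drug libraries are all higher, by 1.69 ± 0.15 in score (edgeR/RRA adjusted p = 0.00959). PHF5A had 404, 357 and 396 CPM and differed by 1.53 ± 0.06, with all 10 guides higher (edgeR/RRA adjusted p = 0.0134). SF3B5 had 541, 417 and 555 CPM against 240, 303 and 337 CPM in DMSO and differed by 1.09 ± 0.19 (edgeR/RRA adjusted p = 0.0302). U2AF1 (1.61 ± 0.13), SF3A2 (1.33 ± 0.19), SNRPD2 (1.30 ± 0.30) and EFTUD2 (1.29 ± 0.21) differed by similar amounts and did not pass (edgeR/RRA adjusted p = 0.129, 0.112, 0.0896 and 0.451). U2AF2 was the exception, with 222, 168 and 140 CPM under the drug, overlapping DMSO (0.03 ± 0.17). Without the third vemurafenib library the number of members that rose was 1, and the share of all genes in that fit is not given here.

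These drug libraries were dominated by few guides. The 100 most abundant guides held 40.5 to 55.3% of reads under vemurafenib and 4.90 to 5.01% in DMSO, and TMM factors were 0.514 to 0.699 against 1.24 to 1.25. As a share of all reads the 150 member guides made up 1.26 to 1.27% at day 0, 0.394 to 0.429% in DMSO and 0.224 to 0.342% under vemurafenib. Member guides thus held a smaller share of reads under the drug while being more abundant relative to most other guides. Scaled on library totals, the median guide fold change of the members was 0.00, with 7 of 15 below 0, and that of all genes was -0.97. With that scaling 6 members rose (8.61% of all genes): EFTUD2, PHF5A, SF3A2, SF3B1, SF3B3 and SNRPD2. EFTUD2, SF3A2 and SNRPD2 are not SF3b subunits, so the members that rose there were not all from SF3b, and SF3B5 did not pass. The part of the dominating guides in these differences was not tested.

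Compared with day 0, the drug-treated MED23KO cells had also lost guides. Of 15 members 9 fell (10.2% of all genes fell and 6.01% rose): EFTUD2, U2AF2, SF3B3, SF3B1, U2AF1, PHF5A, PRPF19, SF3B2 and PRPF31. All 15 scored below day 0 without overlap, as did 38.8% of all genes. EFTUD2, with 106, 77.7 and 70.1 CPM, differed by -2.68 ± 0.08 and U2AF2 by -1.96 ± 0.16 (edgeR/RRA adjusted p = 0.00031 and 0.000652). The day 0 libraries are shared with the DMSO comparison. In DMSO SF3A2, LSM4 and SF3B5 passed and SF3B2 and U2AF2 did not, and for the drug it was the other way round. With scaling on control guides the number that fell was 3 (3.41% of all genes), and on library totals it was 1 (2.51% of all genes).

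In MED12KO cells with the same library the losses were smaller and differed more between libraries. At day 8 in DMSO all 15 members scored below day 0 without overlap (34.3% of all genes), by a median of -0.60, and by edgeR/RRA 0 of 15 fell (4.93% of all genes) and 0 rose (2.96% of all genes). At an unadjusted p under 0.05, 2 of 15 members were lower, which is near the share of all genes (14.5%). At day 14 the median was -0.94 against -0.09 over all genes and 13 members were below day 0 without overlap (36.4% of all genes). Again 0 fell (2.42% of all genes) and 0 rose (2.78% of all genes), and 0 were lower at an unadjusted p under 0.05 (10.3% of all genes).

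SF3B1 showed the largest change in this screen. It had 157, 155 and 148 CPM at day 0, then 83.3, 100.1 and 71.0 CPM at day 8 and 50.8, 108 and 66.4 CPM at day 14. Every later library is below every day 0 library, and all 10 guides were lower at both times. The score of SF3B1 changed by -1.41 ± 0.14 at day 8 and -1.94 ± 0.13 at day 14 (edgeR/RRA adjusted p = 0.0964 and 0.497). Libraries with the same number were correlated in this screen, and with the number as a block SF3B1 fell at day 8 (adjusted p = 0.00257) and day 14 (adjusted p = 0.0496), as did SF3B3 (adjusted p = 0.0405) and SNRPD2 (adjusted p = 0.0269) at day 8 in edgeR/RRA. With that block 9.42% of all genes fell at day 8 and 5.56% at day 14.

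Other members disagreed between libraries of 1 group. PRPF19 had 218, 222 and 214 CPM at day 0 and 80.5, 383 and 164 CPM at day 14. The second library was above day 0 in summed CPM and the first far below it, and the score changed by -0.94 ± 0.59. SF3B3 had 227, 240 and 255 CPM and then 93.0, 352 and 267 CPM, a score change of -1.49 ± 0.50. EFTUD2 had 194, 187 and 174 CPM and then 187, 192 and 112 CPM, so summed CPM barely moved in 2 libraries while the score changed by -1.24 ± 0.43. The spread is visible over all member guides: their median SD of log2 CPM between DMSO libraries at day 14 was 1.26 in MED12KO and 0.64 in MED23KO cells, against 0.19 and 0.13 at day 0. Over all guides of the library these medians were 0.82 and 0.40 at day 14, against 0.15 and 0.14 at day 0.

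Vemurafenib moved no member past the threshold against DMSO in this screen, at day 8 (1.08% of all genes rose, 0.628% fell) or day 14 (0.897% rose, 0.538% fell), and 0 of 15 had an unadjusted p under 0.05 at either day in edgeR/RRA. Of all genes 4.75% were lower and 4.84% higher at that p at day 8, and 3.68% and 3.5% at day 14. The median difference in score was 0.15 over the members and 0.01 over all genes at day 8, and 0.24 and 0.01 at day 14. Scores were below DMSO for 0 of 15 members at day 8 and 3 at day 14 (528 and 538 of 1115 genes). Without overlap, 0 and 1 members were above DMSO (39 and 36 of all genes). Compared with day 0, SF3B1 fell by 2.39 ± 0.20 on the log2 scale under the drug (edgeR/RRA adjusted p = 0.00146), to 49.0, 28.1 and 76.9 CPM. It was the 1 member of 15 that passed, where 0.987% of all genes fell, and 0 rose (2.24% of all genes). The call was absent without the second or the third vemurafenib library and with scaling on library totals, where 5 of all genes fell.

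The difference between both knockouts was tested directly in 1 fit of the epigenetic libraries. The knockout and the screen it was run in cannot be told apart. The change over 14 days in DMSO was more positive in MED12KO cells for all 15 members, by a median score of 1.54 against 0.06 over all genes. For 6 of 15 the difference passed in that direction (3.95% of all genes) and for 0 in the other (1.97% of all genes). EFTUD2 differed by 2.69 ± 0.47, SF3B3 by 2.41 ± 0.51, U2AF1 by 2.34 ± 0.24, PRPF19 by 2.31 ± 0.63, PHF5A by 1.94 ± 0.18 and SNRPD2 by 1.32 ± 0.57 (edgeR/RRA adjusted p = 0.0346, 0.0378, 0.00781, 0.0112, 0.0496 and 0.0429). SF3B1 differed by 1.66 ± 0.17 and did not pass (edgeR/RRA adjusted p = 0.437). With the replicate block 4 passed (3.86% of all genes), and PHF5A and SNRPD2 did not (edgeR/RRA adjusted p = 0.11 and 0.318). That block uses the numbers as labelled. In MED23KO cells DMSO libraries 1 and 2 correlated with another day 0 number (0.34), not with their own (-0.16 and -0.19). The block may thus join unmatched libraries. The number that passed was 0 with scaling on control guides (2.33% of all genes), 0 without the second and 2 without the third MED12KO DMSO library of day 14, and 3 without the first MED23KO DMSO library. For the fits without 1 library the share of all genes is not given here. A loss of member calls there cannot be told from a loss of calls in general.

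**Figure D2:**
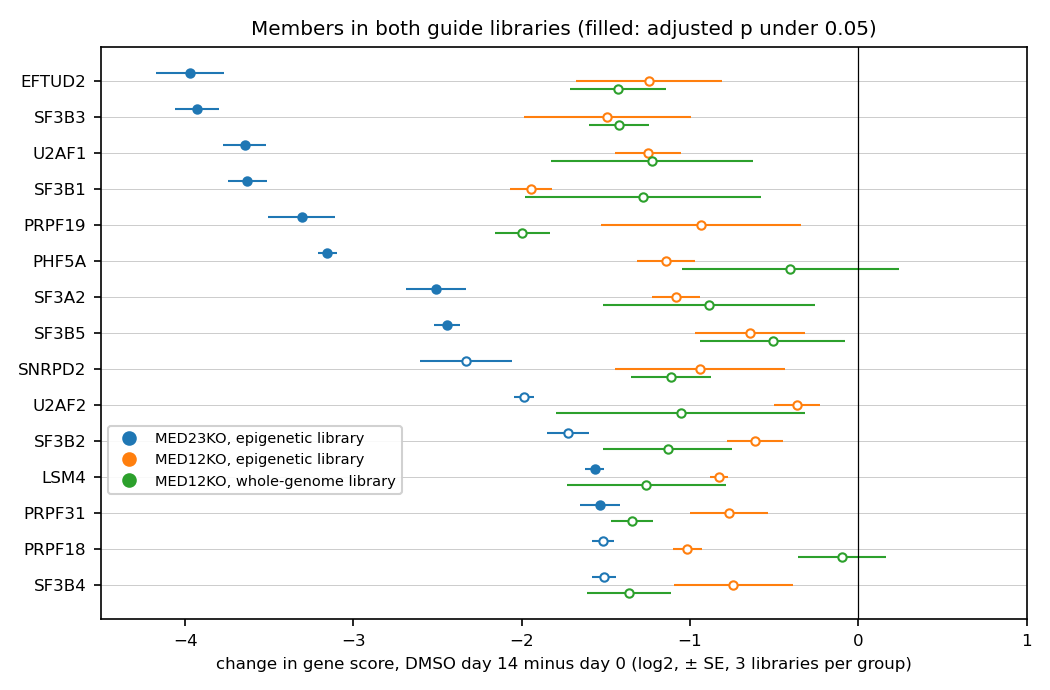
Change in gene score from day 0 to day 14 in DMSO (log2, ± SE, 3 libraries per group) for the 15 members in both guide libraries, in MED23KO cells (blue), MED12KO cells with the epigenetic library (orange) and MED12KO cells with the whole-genome library (green). Filled points passed the threshold; these are the 10 blue ones, which run from EFTUD2 at -3.97 to PRPF31 at -1.54, and all orange and green points lie between -2 and 0.

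The starting levels differed as well, in a comparison added after the data had been seen. At day 0 the member guides held 0.740 to 0.748% of reads in MED12KO and 1.26 to 1.27% in MED23KO cells. All 15 members scored lower at day 0 in MED12KO cells without overlap (53.5% of all genes), by a median of -1.10 against -0.16 over all genes. Scaled together, EFTUD2 started at 175, 168 and 156 CPM in MED12KO and 510, 500 and 471 CPM in MED23KO cells. SF3B1 started at 142, 140 and 133 CPM in MED12KO and 430, 451 and 471 CPM in MED23KO cells. Only SF3B1 passed (-1.74 ± 0.07, edgeR/RRA adjusted p = 0.03, where 1.08% of all genes were lower and 0.538% higher), and 9 members were lower at an unadjusted p under 0.05 (7.98% of all genes). SF3B1 did not pass with the replicate block (edgeR/RRA adjusted p = 0.128) or with scaling on control guides, where 6 and 3 of all genes were lower.

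At day 14 in DMSO the levels of both knockouts were closer for 13 of 15 members and further apart for SF3B4 and U2AF1. That count was not made for all genes, so it is not read as particular to members. The median difference in score was 0.51, with 4 members above without overlap (PHF5A, SF3B5, U2AF1 and U2AF2; 23% of all genes) and 1 below (PRPF18; 25.6% of all genes). By edgeR/RRA 0 of 15 passed (1.61% of all genes were higher and 0.538% lower), with 1 higher at an unadjusted p under 0.05 (5.83% of all genes). SF3B1 ended at 46.6, 99.2 and 61.8 CPM in MED12KO and 63.8, 60.1 and 74.7 CPM in MED23KO cells, and these overlap. U2AF1 ended at 175, 326 and 205 CPM in MED12KO and 87.4, 111 and 123 CPM in MED23KO cells, and these do not. A difference in the 14-day change is the end difference minus the start difference. For PHF5A the end difference was 0.51 and the start difference -1.44, and for U2AF1 they were 1.24 and -1.10.

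**Figure D3:**
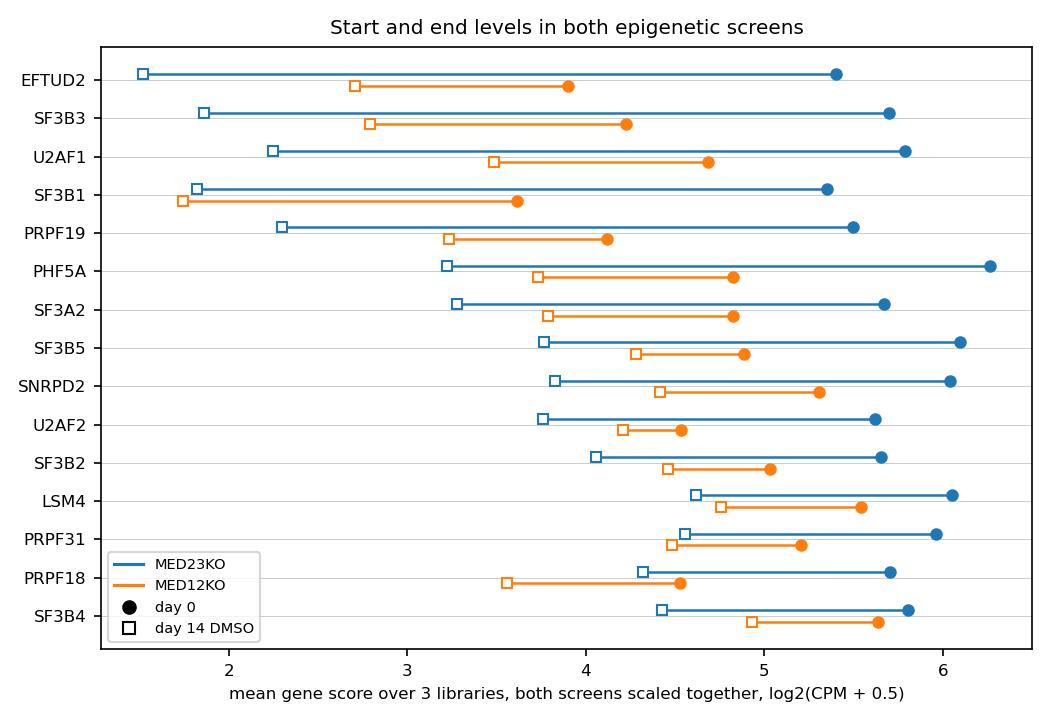
Mean gene score over 3 libraries at day 0 (filled circles) and at day 14 in DMSO (open squares) for the 15 members, with MED23KO in blue and MED12KO in orange, both screens scaled together. Every orange circle lies left of the blue circle of the same gene, by 0.17 for SF3B4 to 1.74 for SF3B1. The squares of both colours lie closer together than the circles for 13 of 15 members, all except SF3B4 and U2AF1, a count not made for all genes.

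The vemurafenib effect at day 14 also differed between knockouts for 1 member, with doses of 2 and 1 µM. PHF5A differed by -1.24 ± 0.29 (edgeR/RRA adjusted p = 0.0156, where 3.14% of all genes differed in this direction and 1.08% in the other). In MED12KO cells PHF5A had 218, 571 and 430 CPM in DMSO and 312, 344 and 476 CPM under vemurafenib, which overlap. The call was absent in 8 of the 12 fits that left out 1 library.

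The whole-genome screen of MED12KO cells measured all 45 members with few guides each. No member passed in any of its 6 comparisons. From day 0 to day 14 in DMSO 0 of 45 fell (0.12% of 19101 genes fell) and 0 rose (0.0314% of them), and 17 were lower at an unadjusted p under 0.05 in edgeR/RRA (4.56% of all genes). The median change in score was -0.90 over the members and -0.22 over all genes, and 43 of 45 were below 0. In 22 members all day 14 libraries scored below all day 0 libraries (19.9% of all genes). At day 8 the median was already -0.72 against -0.08, with 0 fallen (0.236% of all genes) and 0 risen (0.0262%), 17 lower at an unadjusted p under 0.05 (5.02% of all genes) and 23 below without overlap (13.6% of all genes). With limma on gene scores 8 members fell at day 14 (3.59% of all genes fell): PRPF19, LSM7, SNRPA, SNRPF, SF3B3, SF3B4, PRPF31 and PRPF8.

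PRPF8, the large scaffold at the catalytic core, had the lowest p. It had 3.39, 3.14 and 4.01 CPM at day 0, 0.266, 0.418 and 1.1 CPM at day 8 and 0, 0 and 0.663 CPM at day 14. Of its 4 guides 3 had no read in any of the 3 DMSO libraries at day 14. The score changed by -1.29 ± 0.12 (edgeR/RRA adjusted p = 0.162), from a low start that limits how far it can go. PRPF19 had the largest change in score, -2.00 ± 0.16 (edgeR/RRA adjusted p = 0.399). It went from 9.72, 9.22 and 11.9 CPM to 3.64, 0.337 and 1.35 CPM, all below day 0.

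For the U6 ring, LSM7 went from 11.5, 13.7 and 7.65 CPM to 3.13, 1.07 and 0.0221 CPM (-1.93 ± 0.39, edgeR/RRA adjusted p = 0.187). The other LSM members had changes from -1.26 for LSM4 to -0.17 for LSM6. LSM6 had 43.5, 0.393 and 51.7 CPM at day 14 against 18.0, 8.44 and 17.3 CPM at day 0. Its second library was low at both times and the other 2 were above their start.

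In U1, SNRPA, which binds a stem-loop of the U1 RNA, went from 20.7, 17.2 and 21.9 CPM to 2.69, 2.42 and 10.1 CPM (-1.87 ± 0.38, edgeR/RRA adjusted p = 0.5). SNRPC had an intermediate value (-0.90 ± 0.53). PRPF39 (-0.15 ± 0.29) and PRPF40B (0.03 ± 0.73), which associate with U1, were among the 5 members that changed least or upward. PRPF40B had 19.7, 21.8 and 28.2 CPM at day 0 and 12.9, 28.5 and 193 CPM at day 14, so its libraries went in different directions.

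Among Sm proteins SNRPF had the largest loss, from 5.78, 7.26 and 6.29 CPM to 1.88, 0.169 and 0.199 CPM (-1.63 ± 0.22, edgeR/RRA adjusted p = 0.538). SNRPD1 (-1.36 ± 0.25), SNRPG (-1.21 ± 0.70) and SNRPD2 (-1.11 ± 0.24) were next. SNRPB, SNRPE and SNRPD3 were between -0.61 and -0.23. SNRPN, the paralogue of SNRPB known from brain, went the other way: it had 63.1, 55.9 and 60.1 CPM at day 0 and 581, 373 and 104 CPM at day 14. All 3 late libraries of SNRPN were above day 0, as in 6.86% of all genes, but the gene did not pass (1.15 ± 0.48, edgeR/RRA adjusted p = 0.824). In each of these 3 libraries the same guide held 84.7, 73.8 and 63.0% of its reads.

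The U2 members ranged from SF3B3 (-1.42 ± 0.18), SF3B6 (-1.41 ± 0.47), SF3A1 (-1.37 ± 0.27) and SF3B4 (-1.36 ± 0.25) to PHF5A (-0.40 ± 0.64) and SF3A3 (-0.34 ± 0.14). SF3B1 had 17.0, 21.6 and 15.8 CPM at day 0 and 102, 6.11 and 0.973 CPM at day 14. Its first library was above day 0 and the other 2 below (-1.28 ± 0.70). U2AF1 had 7.4, 7.47 and 5.23 CPM and then 0.653, 33.1 and 0.0221 CPM, where the second library stood apart (-1.23 ± 0.60). In that library 1 guide held 97.9% of the reads of U2AF1. Members listed with U5 and the tri-snRNP ranged from EFTUD2 (-1.43 ± 0.28) and PRPF31 (-1.34 ± 0.12) to the second-step factor PRPF18 (-0.10 ± 0.26).

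**Figure D4:**
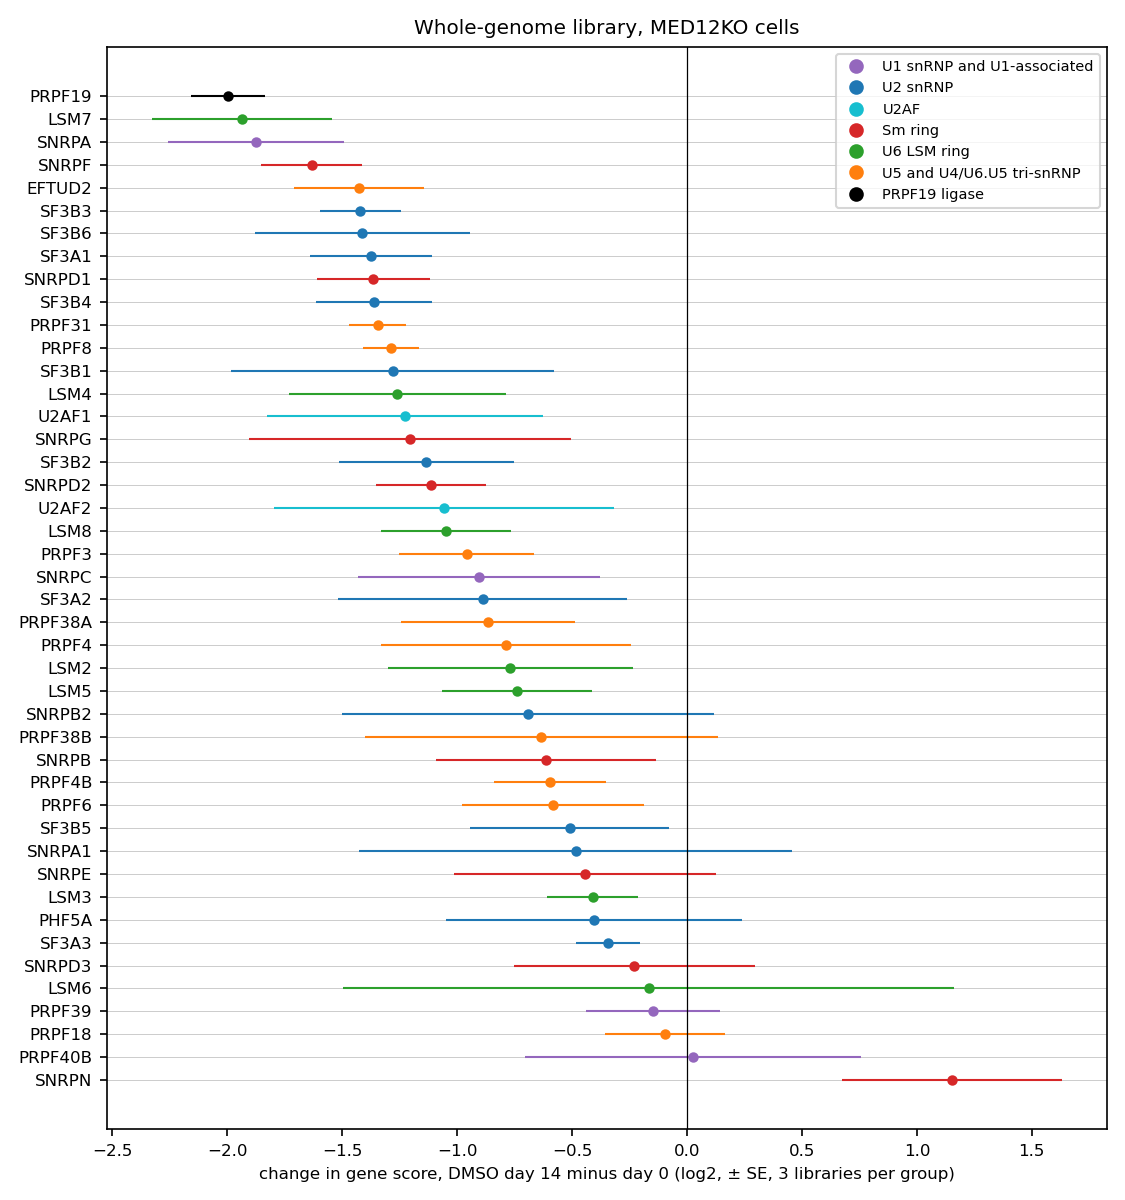
Change in gene score from day 0 to day 14 in DMSO (log2, ± SE, 3 libraries per group) for 44 of the 45 members in the whole-genome screen of MED12KO cells, coloured by role. Members run from PRPF19 at -2.00 to SNRPN at 1.15, 42 of these 44 lie below 0, and no role stands apart from the others by eye.

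Many member guides were no longer read at day 14, and 1 guide often held most reads of a member. At day 14 in DMSO 49 to 59 of the 180 member guides had no read in a given library, against 1 to 2 at day 0 and 24 to 29 at day 8. In all 3 libraries at once 17 member guides (9.44%) had no read, against 1.73% of guides of all genes and 0.5% of 1000 untargeted guides. The median share of a member's reads held by its most abundant guide went from 48.1% at day 0 to 88.6% at day 14. The same guide was on top in all 3 libraries for 29 of 45 members at day 0 and for 11 at day 14. In the epigenetic library, with 10 guides per gene, that share went from 18% to 36.5% in MED23KO and from 23.4% to 37.8% in MED12KO cells. Neither the share nor the top-guide count is given here for all genes, so they are not read as particular to members. In the whole-genome screen the median SD of log2 CPM between DMSO libraries at day 14 was 1.35 over all guides and 1.02 over member guides. A guide with no read in all 3 libraries has no spread on this scale, and such guides were more frequent among members. The lower value for members is thus not read as better agreement between libraries.

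Vemurafenib against DMSO gave no call among the members in this screen. At day 8 the median difference over the members was 0.04, with 3 below and 4 above DMSO at an unadjusted p under 0.05 (2.78% and 2.83% of all genes) and 0 past the threshold (0.0157% of all genes fell and 0.0105% rose). At day 14 it was -0.06, with 2 below and 1 above at an unadjusted p under 0.05 in edgeR/RRA (2.74% and 2.51% of all genes), and 0 past the threshold (0% of all genes). From day 8 to day 14 in DMSO the members' median was -0.20 against -0.12 over all genes, with 0 past the threshold (0.0262% of all genes fell, 0.0157% rose) and 10 lower at an unadjusted p under 0.05 (3.76% of all genes). Against day 0 the drug-treated cells had a median of -1.04, with 0 past the threshold (0.0157% of all genes fell, 0.0366% rose).

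The neighbouring spliceosome lists had similar values in the whole-genome screen. Of 9 helicases 0 fell over 14 days, with a median score change of -1.42 and 5 at an unadjusted p under 0.05. Of 19 genes of the PRPF19 complex and the catalytic step 1 fell, CTNNBL1 (-2.21 ± 0.14, edgeR/RRA adjusted p = 0.0165). Of 17 snRNP assembly genes, 18 SR and SR-like proteins, 14 other snRNP proteins, 10 minor spliceosome genes, 9 branch site helpers and 6 LSM proteins of other rings 0 fell, with medians of -1.14, -0.91, -1.13, -1.24, -1.17 and -0.45. The lowest adjusted p among them was that of SRSF5 (-2.07 ± 0.25, edgeR/RRA adjusted p = 0.0807). Of 84 ribosomal proteins 2 fell, with a median of -0.94, and of 39 proteasome subunits 0 fell, with a median of -0.85.

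At the level of guides the share of lost member guides was highest in MED23KO cells. In MED23KO cells 76% of the 150 member guides lost more than 1 log2 unit over 14 days in DMSO, against 26.2% of guides of all genes and 0% of the 83 untargeted guides. In MED12KO cells with the same library these shares were 48%, 20% and 0%. In the whole-genome screen they were 52.8% of 178 tested member guides, 25.4% and 3.21%. Untargeted guides gained in all 3 screens, by a median of 1.18 in MED23KO cells and of 0.48 and 0.55 in the MED12KO screens. AAVS1 guides, which cut a safe-harbour locus, had a smaller median fold change (0.42 on the log2 scale) than CTRL guides (1.21) in MED23KO cells.

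**Figure D5:**
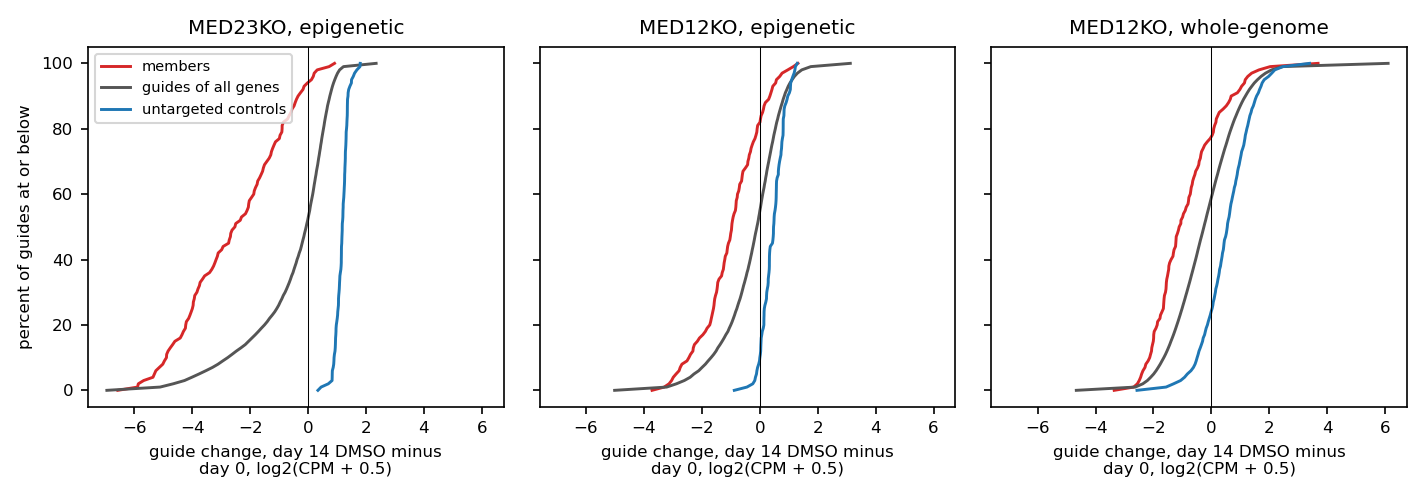
Percent of guides (y axis) whose change from day 0 to day 14 in DMSO was at or below the value on the x axis, in log2(CPM + 0.5) averaged over 3 libraries, for member guides (red), guides of all genes (grey) and untargeted control guides (blue), in 3 screens. The red curve lies left of the others in each screen, most in MED23KO cells, where 76% of member guides are below -1.

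Across the 15 members in both libraries, the 14-day changes in MED12KO and MED23KO cells with the same guides had Pearson r = 0.73 and Spearman rho = 0.71. Between both libraries in MED12KO cells they had r = 0.13 and rho = 0.19. These are descriptions over 15 genes that share libraries, not tests.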

How the data were processed

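The authors deposited raw counts per guide for 39 libraries in 3 tables, made with bcl2fastq, HISAT2 and HTSeq per the submitters' processing notes. Tool versions were not given in the sources used here. The labels describe 2 rounds of PCR and no molecular identifiers, so reads are not independent molecules. Guide names give the gene symbol, and 44 of the 45 members are current RefSeq symbols. Guide sequences were not analysed here, and the knockout of MED12 or MED23 itself was not checked.

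Guides were filtered with filterByExpr (minimum count 10, minimum total 15), scaled with TMM and tested with the quasi-likelihood test of edgeR 4.0.16 in R 4.3.3, in 1 fit per table and 1 fit of both epigenetic tables for differences between knockouts. Guide p-values were ranked in each direction and combined per gene by robust rank aggregation (RRA, alpha 0.25). The gene p is 2 times the smaller 1-sided p, adjusted by Benjamini-Hochberg over the 1115 or 19101 genes that had 3 or more tested guides, with a threshold of 0.05. The procedure was also run on simulated counts drawn independently for each library. Those lack the correlation between libraries of the same replicate number, so that run is not used as support here. Alternatives were DESeq2 1.42.0 for the guide test, limma 3.58.1 on gene scores, scaling on untargeted guides, no count filter, a replicate block and leaving out each library, and, chosen after seeing the data, scaling on library totals.

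Members and lists were chosen with earlier results of these data known. Every member could be named, but 1 is not reported here by name and enters the counts and medians only. Values per library were given for up to 10 members per screen with the lowest adjusted p for growth in DMSO (ties by larger score change), for members in both guide libraries and for the least changed, and up to 5 genes of each neighbouring list were named by the same p. In the MED12KO screens libraries with the same replicate number deviated together (correlations 0.33 to 0.92 over all comparisons), as they did for vemurafenib against day 0 in MED23KO cells (0.30 to 0.32). In the other 2 MED23KO comparisons, which use the DMSO libraries, this held for number 3 only (0.34 and 0.30). Numbers 1 and 2 had correlations of -0.19 to -0.15 with their own number and of 0.28 to 0.34 with another number. Whether these labels were exchanged was not tested.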

Additional observations from a re-analysis of the deposited data

Results flagged for a closer look

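For 6 members the 14-day change in DMSO differed between the knockouts by the test of the difference itself (MED12KO minus MED23KO, change in gene score): EFTUD2 2.69, SF3B3 2.41, U2AF1 2.34, PRPF19 2.31, PHF5A 1.94 and SNRPD2 1.32. Of 18 alternatives PRPF19 and U2AF1 passed in 15, EFTUD2 and SF3B3 in 14, and PHF5A and SNRPD2 in 6. For 1 member the day 14 vemurafenib effect differed, PHF5A by -1.24, and it passed in 10 of 18 alternatives. The labels do not say whether both screens were run side by side, and the vemurafenib doses differed. The screen, and for vemurafenib the dose, cannot be told apart from the knockout.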

How the results depend on the processing

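No count of called members changed its direction under any alternative that was run. With limma on gene scores in place of edgeR/RRA, more members passed: over 14 days in DMSO 15 in MED23KO, 9 in MED12KO (epigenetic) and 8 in the whole-genome screen, at day 8 in DMSO 5 and 1 (141 and 67 of all genes), for vemurafenib against day 0 15, 8 and 10 (373, 305 and 1048 of all genes), for vemurafenib against DMSO in MED23KO 14 (368 of all genes), and for differences between knockouts 12 (growth, 199 of all genes), 4 (vemurafenib, 114) and 12 (day 0, 236). For DMSO at day 14 limma gave 4 members higher and 1 lower, PRPF18, against 242 and 251 of all genes. Over all genes limma called 478 as fallen against 141 in MED23KO growth, 303 against 27 in MED12KO, and 686 against 23 in the whole-genome screen. Scaling on control guides gave 3 for MED23KO growth (54 of all genes) and 3 for vemurafenib against day 0 in MED23KO (38 against 114 of all genes). With that scaling the growth difference gave 0 (26 against 44 of all genes rose). Day 0 between knockouts also gave 0 (3 against 12 of all genes were lower). Scaling on library totals gave 0 for vemurafenib against day 0 in MED12KO (5 against 11 of all genes fell) and 1 in MED23KO (28 of all genes). For vemurafenib against DMSO in MED23KO it gave 6 (96 of all genes). The replicate block gave 3 at day 8 and 1 at day 14 in MED12KO growth (105 and 62 of all genes fell). At day 0 between knockouts it gave 0 (6 against 12 of all genes were lower). In MED23KO growth numbers 1 and 2 correlated with another number (0.34) and not with their own (-0.16 and -0.19). Number 3 correlated with its own (0.34). The block used the numbers as labelled and left the count at 10, without LSM4 (edgeR/RRA adjusted p = 0.116) and PRPF31 (edgeR/RRA adjusted p = 0.663). The block changed the count of called members by 1 or 2 in the growth difference (4, and 43 of all genes) and in vemurafenib against DMSO in MED23KO (4, and 97 of all genes). Both comparisons also rest on the MED23KO DMSO numbers as labelled. Leaving out 1 library gave 0 to 1 for day 8 growth in both MED12KO screens, 0 to 1 for vemurafenib against day 0 in MED12KO, 9 to 10 for MED23KO growth, 1 to 4 and 6 to 9 for vemurafenib in MED23KO against DMSO and against day 0, 0 to 5 for the growth difference and 0 to 1 for the vemurafenib difference. The share of all genes called in these fits is not given here. The cause of these changes in count was not tested. DESeq2 and no count filter left each member count within 1 of the main count. A guide with no read has only an upper bound, which was so for 49 to 59 of 180 member guides in a whole-genome DMSO library at day 14.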
